A study of Mus musculus with 6 samples.

Results

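The genes of de novo purine synthesis are described here by the accessibility of their chromatin in leukemia stem cells with and without mycophenolate mofetil (MMF). Purine rings are built stepwise on ribose. Prps1 and Prps2 make phosphoribosyl pyrophosphate (PRPP), Ppat commits PRPP to the pathway, and Gart, Pfas, Paics, Adsl and Atic complete the ring as inosine monophosphate (IMP). Adss starts the branch from IMP to AMP, the branch to GMP starts with IMP dehydrogenase, the target of the active form of MMF, and Mthfd2 is a mitochondrial folate enzyme that supplies formyl groups. Products of the pathway inhibit the PRPP synthetases and Ppat, and in growing blood cells and leukemias the pathway supplies DNA and RNA synthesis.

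The members were the 10 genes Prps1, Prps2, Ppat, Gart, Pfas, Paics, Adsl, Atic, Adss and Mthfd2, and every accessible region that overlapped the gene body or the 10 kb on either side of it (mm10, GENCODE M21). These were 47 of the 112852 regions obtained by merging the peaks of all 6 samples. The windows of Ppat and Paics overlap and share 3 of the 47 regions.

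ATAC-seq, in which the Tn5 transposase inserts sequencing adapters into open chromatin, was carried out on sorted L-GMP cells, the MLL-AF9-driven leukemia stem cells (LSCs) of the mouse, with 3 untreated samples (Control) and 3 samples treated with MMF for 24 h. All 6 carried the genotype label WT and the tissue label blood, and all were grown in medium with mouse IL3. The labels list L-GMP cells as a cell line, whereas the methods describe cells sorted from leukemic mice and then cultured, so the comparison is of cells outside their host. The labels give no dose, and the methods and the legends of the study differ in dose and time. The study states in general that its replicates were biologically independent, and neither the labels nor the methods say for these 6 samples whether they came from separate mice or cultures, so p-values measure the spread between these samples, which may be technical. Control lists held 58496 to 63911 peaks and MMF lists 80893 to 86556 peaks. Of 13 genes that mark granulocyte-macrophage progenitors and this leukemia, 11 had a promoter peak in at least 1 list and 7 in all 6 lists, at mean levels of 3.98 to 6.95 on the log2 scale used below. Mpo and Prtn3, which encode primary granule proteins, had none in any list. None of 4 T cell genes had a promoter peak, whereas 1 of 4 B cell genes (Ebf1, in all 6 lists), 3 of 4 erythroid genes (Klf1 in all 6 lists, and not Gata1) and 1 of 4 non-blood genes did. Among the 7 progenitor promoters tested, Csf3r, the receptor for granulocyte colony-stimulating factor, was called higher with MMF at 0.76 (log2, adjusted p = 0.0152, limma), a call that was lost when each sample was centred on its median (adjusted p = 0.109). Of the 7, 3 were higher and 2 lower at an unadjusted p under 0.05. The differences were 0.52 in Ctsg, 0.48 in Spi1, 0.31 in Kit, -0.40 in Meis1, -0.36 in Hoxa9 and -0.31 in Cebpa. Limma adjusted p were 0.0839 to 0.470 for these 6. With centring, Meis1, Hoxa9 and Cebpa were called lower (adjusted p of 0.0240, 0.0204 and 0.0274). The part of these differences in the results below was not tested.

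Sequences are shown for promoters of the members, for the motifs near their starts. They are also shown for the regions called higher or gained with MMF (described below), for the bases around their summits. The RefSeq promoter table (GRCm38.p6, 250 bases before to 50 after a start) held 9 of the 10 members, all but Pfas. The E-box CACGTG, bound by MYC and related factors, was present on either strand in 2 of the 9, Paics and Atic, and in 7.15% of all 32851 promoters of the same length. The NF-Y box CCAAT was present in 5 of the 9 (Prps1, Gart, Paics, Atic and Mthfd2) and in 37.4% of all promoters, and the SP/KLF box GGGCGG in 7 of the 9 and in 35.7% of all promoters. The ETS motif CCGGAAGT was present only in Gart among the 9 (3.89% of all promoters), and the ATF4 motif TGATGCAA in none of them (0.895% of all promoters). Such matches describe letters only.

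The bases that lead up to the starts of Atic (chr1:71557055-71557155, + strand), Gart (chr16:91646973-91647073, − strand), Mthfd2 (chr6:83317605-83317705, − strand), Prps1 (chrX:140456502-140456602, + strand) and Prps2 (chrX:167382750-167382850, − strand), and the E-box upstream of Paics (chr5:76951087-76951116, + strand), are given 5′ to 3′ with matches to the 5 promoter motifs in capitals. They were chosen to show the E-boxes, the CCAAT boxes of Mthfd2, and the contrast between the X-linked synthetase genes. They do not always hold the summits at which accessibility was read: of the 6 summits of each promoter, 6 lay inside the printed stretch for Prps1, 5 for Atic, 3 for Prps2, 2 for Mthfd2, and 0 for Gart and Paics.
Paics: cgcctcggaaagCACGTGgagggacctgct
Atic: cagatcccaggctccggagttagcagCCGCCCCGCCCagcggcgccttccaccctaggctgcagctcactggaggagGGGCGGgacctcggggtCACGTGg
Gart: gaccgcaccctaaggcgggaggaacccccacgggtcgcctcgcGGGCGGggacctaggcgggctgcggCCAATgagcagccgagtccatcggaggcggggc
Mthfd2: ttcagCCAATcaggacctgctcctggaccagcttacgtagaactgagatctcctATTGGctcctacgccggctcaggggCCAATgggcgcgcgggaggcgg
Prps1: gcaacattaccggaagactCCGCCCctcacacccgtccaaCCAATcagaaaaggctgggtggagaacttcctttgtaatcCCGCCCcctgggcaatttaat
Prps2: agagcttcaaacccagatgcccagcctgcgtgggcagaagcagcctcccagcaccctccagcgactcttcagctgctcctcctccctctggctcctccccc

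The 300-base promoters of the members ranged from 51.3% GC in Prps1 to 77.7% in Adss, against a median of 52.7% over all promoters. They held 7 CpG dinucleotides in Prps2 and 15 to 36 in the other 8, against a median of 7. Prps2 was the only one of the 9 with no match to any of the 5 motifs.

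The level of a region was taken as the reads over the summit of its highest peak divided by the genome-wide background, the number of reads expected at any position, which corrects for sequencing depth. These scaled summit reads are read in each sample at a single position, the highest summit in the region. A wider region can hold more summits to choose from, and the position can differ between samples. In Mthfd2 it lay at 2, -18 and 401 bp from the start in Control and at -18, 389 and 392 bp in MMF samples. All 10 genes had a promoter peak, within 1000 bp of an annotated start, in all 6 lists. The promoters fell into 3 tiers whose samples did not overlap: Prps2, then Prps1, then the other 8 genes.

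**Figure D1:**
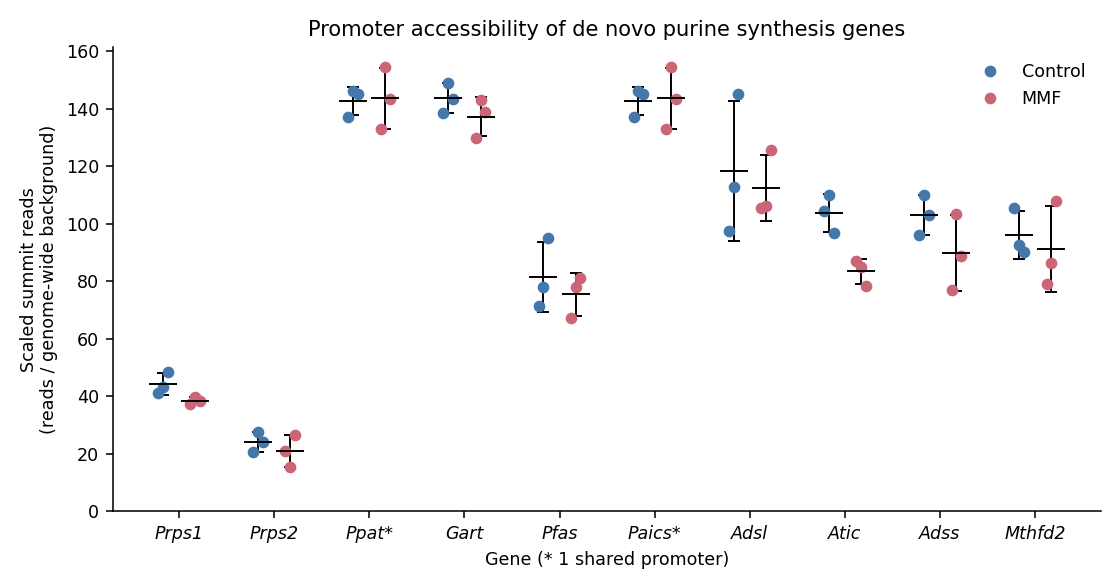
Scaled summit reads (reads over the promoter summit divided by the genome-wide background) of the 10 genes, with 1 point per sample and the mean ± SD of 3 samples in black. Ppat and Paics share 1 promoter; Prps2 and Prps1 lie below all other genes, and only in Prps1 and Atic do the Control and MMF points not overlap.

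Among the PRPP synthetases, the Prps1 promoter (chrX:140456239-140457330) had scaled summit reads of 41.2, 43.4 and 48.4 in Control and 37.4, 39.7 and 38.4 in MMF samples. The groups did not overlap, with every MMF value below every Control value. The log2 difference of MMF minus Control was -0.20 (SE 0.16, 95% interval -0.55 to 0.15, limma adjusted p = 0.423). A two-sided exact permutation test gave p = 0.1, below which groups of 3 cannot go. Before scaling, the Prps1 summit reads overlapped, at 30, 30 and 30 in Control and 34, 28 and 26 in MMF samples.
The Prps2 promoter (chrX:167381989-167383080) had 20.6, 27.5 and 24.2 in Control and 20.9, 15.6 and 26.6 in MMF samples. MMF 2 was the lowest, and the groups overlapped. The difference was -0.22 (SE 0.22, 95% interval -0.71 to 0.27, limma adjusted p = 0.537). Its summits held 11 to 19 reads, and a count of 11 has an exact 95% Poisson interval of 5.49 to 19.7, which covers counting error only. Over all genes with a promoter peak in all 6 lists, the Prps2 promoter stood at percentile 9.68 by mean level and Prps1 at 25.4.

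Ppat, the glutamine PRPP amidotransferase that commits PRPP to purines, and Paics, a bifunctional enzyme of later steps, are divergent neighbours whose annotated bodies overlap, and a single region (chr5:76950932-76952045) covered both. It was the strongest of the member promoters, at percentile 91.9. Its scaled summit reads were 137, 146 and 145 in Control and 133, 154 and 143 in MMF samples. The groups overlapped, and the difference was 0.01 (SE 0.16, 95% interval -0.34 to 0.36, limma adjusted p = 0.984), which leaves room for a change of up to 1.28-fold. The E-box printed above lies within this region, in an annotated untranslated exon stretch of Ppat.

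Gart, a trifunctional enzyme of the middle steps, shares its promoter region (chr16:91646845-91648494) with Son, which encodes a splicing protein and is transcribed the other way. Scaled summit reads were 139, 149 and 144 in Control and 130, 143 and 139 in MMF samples. The highest summit lay at -886 to -848 bp from the Gart start, in an annotated exon of Son. The difference was -0.07 (SE 0.15, 95% interval -0.41 to 0.28, limma adjusted p = 0.808).

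Pfas, the amidotransferase of the fourth step, had promoter values (chr11:69008160-69008921) of 71.3, 78.1 and 95.1 in Control and 67.1, 77.9 and 81.3 in MMF samples. The groups overlapped, and the difference was -0.11 (SE 0.18, 95% interval -0.50 to 0.29, limma adjusted p = 0.726).
Adsl, the lyase that acts both in the ring synthesis and in the AMP branch, had 97.4, 113 and 145 in Control and 106, 106 and 126 in MMF samples (chr15:80948114-80948815). Control 3 stood highest, and the groups overlapped, with a difference of -0.06 (SE 0.19, 95% interval -0.49 to 0.37, limma adjusted p = 0.864).

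Atic, which adds the last formyl group and closes the ring to IMP, showed the largest promoter difference of the 10 genes, although it did not pass the test. Its scaled summit reads were 104, 110 and 96.7 in Control and 86.9, 85.0 and 78.3 in MMF samples (chr1:71556761-71557653), with no overlap between the groups. The mean was 104 ± 6.61 in Control and 83.4 ± 4.49 in MMF samples (SD, n = 3 per group), a fold of 0.805 (95% interval 0.631 to 1.03). The log2 difference was -0.31 (SE 0.16, limma adjusted p = 0.203), and the exact permutation p was 0.1. Before scaling, the Atic summit reads overlapped, at 76, 76 and 60 in Control and 79, 60 and 53 in MMF samples. The E-box of the Atic promoter printed above spans the GENCODE start of Atic, and the summits lay at -115 to -16 bp from that start.

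Adss, the synthetase of the AMP branch, had 96.0, 110 and 103 in Control and 77.0, 103 and 88.7 in MMF samples (chr1:177795901-177796944). The groups overlapped through MMF 2, and the difference was -0.21 (SE 0.17, 95% interval -0.59 to 0.18, limma adjusted p = 0.448).
Mthfd2 had 106, 92.6 and 90.3 in Control and 79.2, 86.4 and 108 in MMF samples (chr6:83316867-83318134). MMF 3 was the highest of the 6, and the difference was -0.09 (SE 0.18, 95% interval -0.48 to 0.31, limma adjusted p = 0.783). A start of the unclassified gene model Gm43890 also lies within 1000 bp of the region.

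Across the 10 genes, 0 promoters were called higher and 0 lower (limma across all shared regions, Benjamini-Hochberg adjusted p under 0.05), and 0 of them had an unadjusted p under 0.05. Over the promoters of all genes tested, 3.80% were called higher and 1.33% lower. The groups did not overlap, with MMF lower, in 2 of the 10 genes, against 17.2% of all 15249 genes with a promoter peak in all 6 lists. They did not overlap with MMF higher in 0 of the 10, against 8.36% of all genes. Ppat and Paics count as 2 of the 10 but share 1 region. Over the 9 member promoter regions the median difference was -0.11, and 8 were negative. The median promoter difference of the 10 was -0.10, beside -0.09 over all genes, and 8 of the 10 were negative, beside 65.0% of all genes. The sign of this median depended on the scale: it was 0.07 as log2 fold enrichment over the local background (0.0145 over all genes), 0.07 by rank of fold enrichment (-0.0092), 0.11 by rank of −log10 p (0.0667), -0.16 by rank of fold enrichment in lists of equal length (-0.25), and -0.45 when every sample was centred on the median of its shared regions (-0.44). Centring shifted all differences down by 0.354. With it the promoters of Prps1 (adjusted p = 0.0362), Atic (0.0247) and Adss (0.0428) were called lower by limma. Of all shared regions, 13.9% were then called lower and 6.90% higher, against 0.969% and 18.6% without it. The share of all promoters called with centring was not counted.

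Promoter differences changed with promoter level in the series as a whole. The median difference was 0.09 in the weakest of 4 equal bins of all genes by level, and -0.06, -0.11 and -0.15 in the next bins. Most members were strong promoters, and their median level was 6.56 (log2), beside 6.16 over all genes. Prps2, with a difference of -0.22, lay in the weakest bin, and Ppat and Paics, with 0.01, lay in the strongest.

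**Figure D2:**
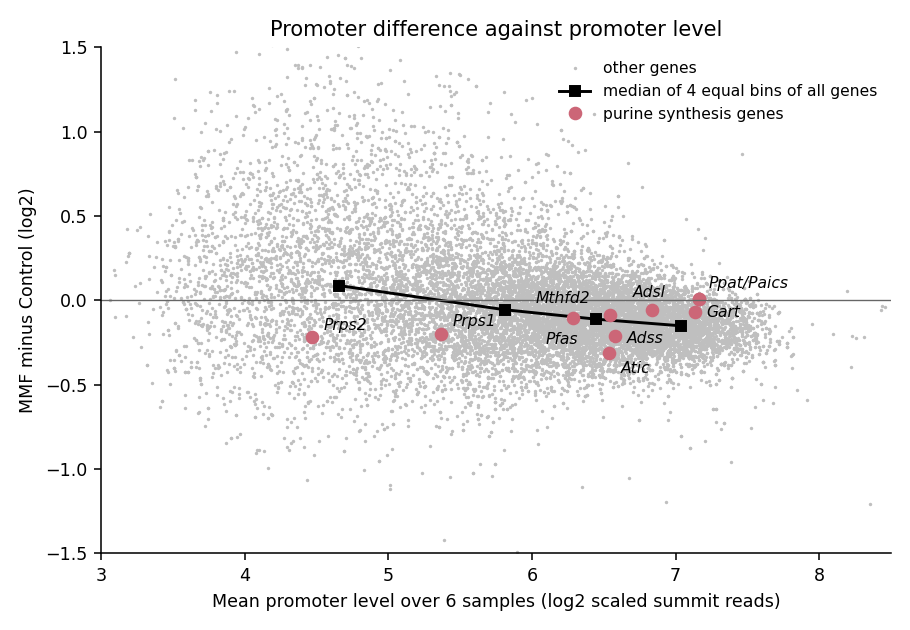
Promoter difference (MMF minus Control, log2 scaled summit reads) against the mean promoter level over 6 samples, for all genes with a promoter peak in all 6 lists (grey), the medians of 4 equal bins by level (black) and the 10 members (red); 77 genes lie outside the axes. The members range from -0.31 to 0.01 and sit among the other genes of their level.

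The windows of the 10 genes, promoters included, held more peaks in every MMF list than in any Control list, as did the lists as a whole. The lists held 30, 29 and 26 peaks there in Control and 39, 36 and 39 in MMF samples. The means were 28.3 ± 2.08 and 38.0 ± 1.73 (SD, n = 3 per group; exact permutation p = 0.1), a ratio of 1.34, and the ratio of all peaks was 1.37. Of the 47 regions, 19 had a peak in all 6 lists, 3 were gained (a peak in all MMF lists and no Control list), 0 were lost, and 25 had another pattern. Gained regions made up 6.001% of all regions of the series and lost regions 0.182%, so that 3 of 47 is close to the background. The regions not in all 6 lists were weak, with a median of 9.5 summit reads, against 55.5 in the 19 shared ones.

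**Figure D3:**
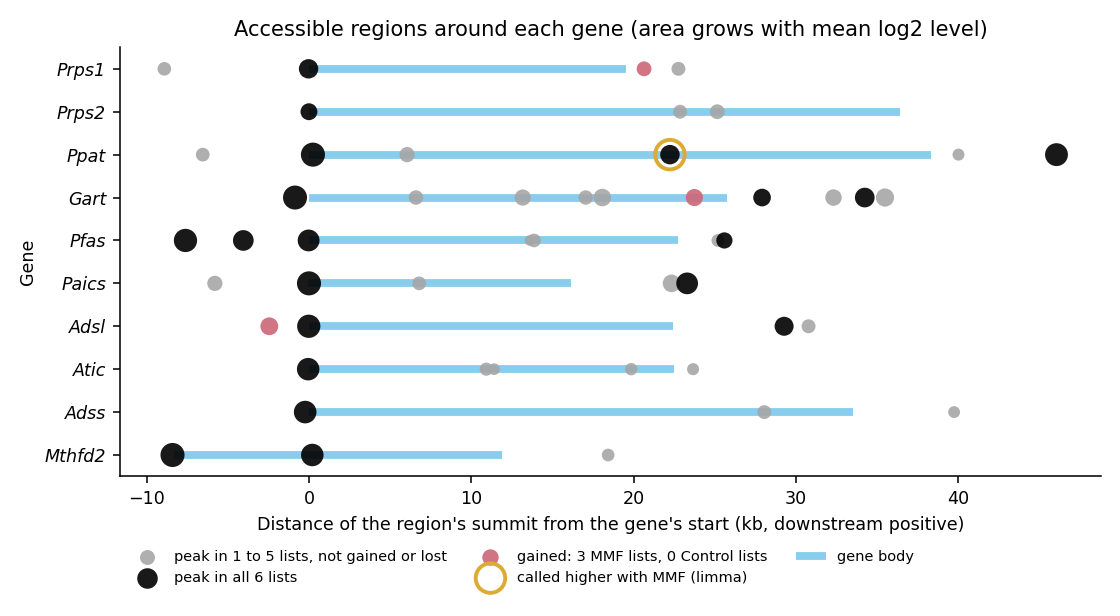
The regions of each gene by the distance of their summit from the gene's start (kb, downstream positive); blue bars are gene bodies, the area of a point grows with its mean log2 level, black points have a peak in all 6 lists, red points are gained and grey points have another pattern. The region ringed in yellow, in Ppat, is the single one called higher with MMF; each gene has a black point at or near its start, and most points inside gene bodies are grey.

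Of the 19 shared regions, 1 was called higher and 0 lower, beside 18.6% and 0.969% of all shared regions. The 19 were mostly promoters, 9 of members and 7 of neighbours only. Over the promoters of all genes tested, 3.80% were called higher and 1.33% lower. By limma, 1 of the 19 was higher and 0 were lower at an unadjusted p under 0.05. The called region (chr5:76929168-76929691) lies in an intron of Ppat, within 1000 bp of a start of the antisense RNA 2310040G07Rik. It had scaled summit reads of 34.3, 30.4 and 27.4 in Control and 50.6, 72.2 and 54.7 in MMF samples. Every MMF value was above every Control value, and the mean rose from 30.7 ± 3.46 to 59.2 ± 11.5 (SD, n = 3 per group). The difference was 0.94 (log2, SE 0.19, 95% interval 0.51 to 1.36, limma adjusted p = 0.00843), a fold of 1.91. It was 0.58 with an adjusted p of 0.0505 when samples were centred on their medians, so that the call was lost there. ATAC-seq reads are cut from DNA, so they do not say which of the overlapping genes a region belongs to.

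The gained regions lay near Adsl, Gart and Prps1. Upstream of Adsl (chr15:80945946-80946137, -2.45 kb from its start), the MMF samples had 25, 19 and 20 summit reads, or scaled summit reads of 27.5, 26.9 and 29.6. Their fold enrichments over the local background were 4.43, 4.52 and 4.22, and no Control list held a peak there.
In the 3′ part of Gart (chr16:91623104-91623355), in an intron of Gart and an exon of the antisense RNA Gm15964, the MMF samples had scaled summit reads of 23.1, 24.1 and 23.7, and a fold enrichment of 7.57, 7.91 and 7.73.
Downstream of Prps1 (chrX:140477138-140477423, 20.6 kb from the start), they had 12.1, 11.3 and 17.7 scaled summit reads, from 11, 8 and 12 reads. The lists show called peaks only, so a missing peak is not a level of 0 and no fold is given. The Prps1 region had the lowest scaled summit reads of the 3, but its fold enrichments of 6.29, 5.28 and 7.75 were above those of the Adsl region. It was no longer gained when the lists were cut to equal length.

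**Figure D4:**
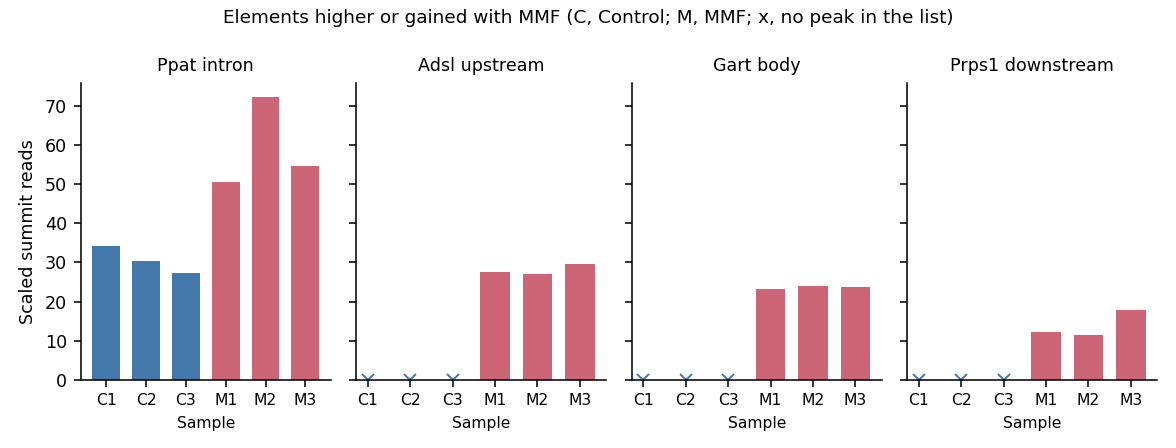
Scaled summit reads in each sample (C, Control; M, MMF) of the Ppat intronic region that was called higher and of the 3 gained regions; crosses mark lists with no peak. The MMF bars of the Ppat region, 50.6 to 72.2, stand above the Control bars of 27.4 to 34.3.

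The 151 bases around the summits of these 4 regions, called higher or gained, are given on the + strand. Matches to 5 motifs of blood cell factors and E-box proteins on either strand are in capitals. Only the Ppat region had a level in both groups, since the gained regions had no Control peak. The windows are chr5:76929262-76929412 (Ppat), chr15:80945964-80946114 (Adsl), chr16:91623128-91623278 (Gart) and chrX:140477184-140477334 (Prps1).
Ppat: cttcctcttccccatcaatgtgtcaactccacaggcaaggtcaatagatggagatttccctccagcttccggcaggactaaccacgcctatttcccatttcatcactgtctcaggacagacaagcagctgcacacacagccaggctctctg
Adsl: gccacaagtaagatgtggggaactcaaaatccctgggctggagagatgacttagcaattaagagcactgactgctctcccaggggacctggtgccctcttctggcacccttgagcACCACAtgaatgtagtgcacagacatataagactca
Gart: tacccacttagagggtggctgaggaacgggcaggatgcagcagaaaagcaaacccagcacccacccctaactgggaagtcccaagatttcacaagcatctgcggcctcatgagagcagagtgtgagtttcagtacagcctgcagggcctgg
Prps1: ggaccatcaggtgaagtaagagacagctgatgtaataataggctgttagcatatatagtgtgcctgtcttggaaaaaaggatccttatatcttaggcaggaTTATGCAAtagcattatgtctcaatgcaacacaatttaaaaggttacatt

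The C/EBP motif, searched as TTGCNNAA, matched only the Prps1 region among the 4, 12.5% of all region windows of this length and 20.3% of the windows of all gained regions. The RUNX motif TGTGGT matched only the Adsl region among the 4, 22.2% of all windows and 27.0% of those of gained regions. The PU.1 motif GAGGAAGT (7.52% of all windows), the AP-1 motif TGANTCA (14.3%) and the E-box CACGTG (3.54%) matched none of the 4. In the Adsl window, 70.2% of the bases are soft-masked as repeats in the assembly, beside 0 to 13.9% in the other 3. All 6 tested pieces of 50 bases from each window occurred only there in the chromosomes used.

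By scaled summit reads, the strongest regions outside any promoter were at Pfas and Gart. Their fold enrichments over the local background in the 6 samples were 4.86 to 6.96 at Pfas and 7.38 to 12.4 at Gart. At -4055 bp from Pfas (chr11:69012378-69012664), scaled summit reads were 68.6, 57.8 and 66.1 in Control and 45.1, 69.4 and 44.3 in MMF samples. MMF 1 and MMF 3 lay below all Control samples and MMF 2 above them, with a difference of -0.31 (SE 0.21, limma adjusted p = 0.345). Downstream of Gart (chr16:91612499-91612932), they were 30.2, 43.4 and 54.8 in Control and 39.6, 59.5 and 45.8 in MMF samples, which overlapped (0.20, SE 0.24, limma adjusted p = 0.628).
In the other genes the strongest region outside promoters was weak. In the intron of Ppat within the window of Paics (chr5:76945428-76945691), 1 Control and 3 MMF lists held a peak, of 6 to 18 reads. In Adss (chr1:177768321-177768570), these were also 1 Control and 3 MMF lists, with 5 to 12 reads. Atic had a peak in 2 MMF lists (chr1:71567979-71568135), Prps2 in 1 MMF list (chrX:167357539-167357706) and Mthfd2 in 1 Control list (chr6:83299166-83299315), each of at most 9 reads. Of the 14 regions inside member genes and away from any promoter, 12 had a peak in more MMF than Control lists, 1 in more Control lists and 1 in equal numbers, none of them with a peak in all 6 lists. Of all member regions without a peak in all 6 lists, 20 of 28 had it in more MMF lists, beside 73.9% of the 71670 such regions of the series.

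The windows also held the promoters of neighbours, namely Aasdh, 2310040G07Rik and Srp72 around Ppat and Paics, Son, Dnajc28 and Gm15964 around Gart, Ctc1 and Gm25819 around Pfas, Sgsm3 near Adsl, and Mob1a and Gm43890 at Mthfd2. In the basic GENCODE M21 annotation, 10 regions lay within 1000 bp of the start of a neighbour but of no member. Of these, 7 were shared by all lists, and none but the 2310040G07Rik region was called. At Dnajc28 the groups did not overlap, with scaled summit reads of 27.4, 27.5 and 32.2 in Control and 22.0, 26.9 and 25.1 in MMF samples. The difference of -0.24 (SE 0.17) had a limma adjusted p of 0.369. Before scaling, the Dnajc28 summit reads overlapped, at 20, 19 and 20 in Control and 20, 19 and 17 in MMF samples. The Mob1a region also holds the 5′ end of the Mthfd2 gene body in the full annotation (chr6:83325908). It was among the strongest of the 47, at 133, 150 and 140 in Control and 136, 142 and 151 in MMF samples.

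Of the genes that feed or drain the pathway, 3 had a called promoter in the 4 lists tested. In the supply of serine and folate-bound carbon, 0 of 18 genes were called higher and 2 lower by limma (0 and 5 at an unadjusted p under 0.05), beside 3.80% higher and 1.33% lower over the promoters of all genes tested. Of the 18 differences 16 were negative, with a median of -0.26, beside 65.0% and -0.09 over all genes. Phgdh, the dehydrogenase that opens serine synthesis, had log2 levels of 5.81, 5.85 and 5.44 in Control and 5.14, 5.09 and 4.65 in MMF samples. All MMF values lay below all Control values, and it fell to 0.596-fold (log2 difference -0.75, SE 0.20, limma adjusted p = 0.0258). Aldh1l1, a cytosolic formyltetrahydrofolate dehydrogenase, had 4.36, 4.12 and 4.60 in Control and 3.60, 3.09 and 4.02 in MMF samples and fell to 0.578-fold (-0.79, SE 0.24, limma adjusted p = 0.0465). Both calls were lost on the scale of log2 fold enrichment, with adjusted p of 0.0854 for Phgdh and 0.130 for Aldh1l1, and Aldh1l1 lost its call without any single sample other than MMF 3, at adjusted p of 0.0515 to 0.151. Phgdh lost its call without Control 1, Control 2, MMF 2 or MMF 3, at adjusted p of 0.0531 to 0.0910.

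In the IMP branches, salvage and catabolism, 1 of 15 tested genes was called higher and 0 lower by limma (1 and 2 at an unadjusted p under 0.05), beside the same 3.80% and 1.33%, with a median of -0.10. It was Gda, the guanine deaminase that breaks down guanine, whose region rose 1.91-fold (0.93, SE 0.17, limma adjusted p = 0.00547, on the highest peak of the merged region). The peak within 1000 bp of its start, which differed by 0.92, gave log2 levels of 5.63, 5.89 and 5.94 in Control and 6.66, 6.65 and 6.90 in MMF samples, which did not overlap, and the call was lost on the scale of log2 fold enrichment (adjusted p = 0.0701). Ampd3 had a promoter peak in every list but in different regions and was not tested. Among 9 genes of PRPP and pentose phosphate supply, 0 were called in either direction (median -0.06; 0 higher and 1 lower at an unadjusted limma p under 0.05), and the largest differences were -0.38 (SE 0.17) in Prpsap1, a PRPP synthetase-associated protein, and -0.29 (SE 0.18) in Taldo1, the transaldolase. Among 5 genes of pyrimidine synthesis, 0 were called (median -0.32; likewise 0 higher and 1 lower unadjusted), with -0.41 (SE 0.17) in Umps and -0.39 (SE 0.19) in Cad.

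**Figure D5:**
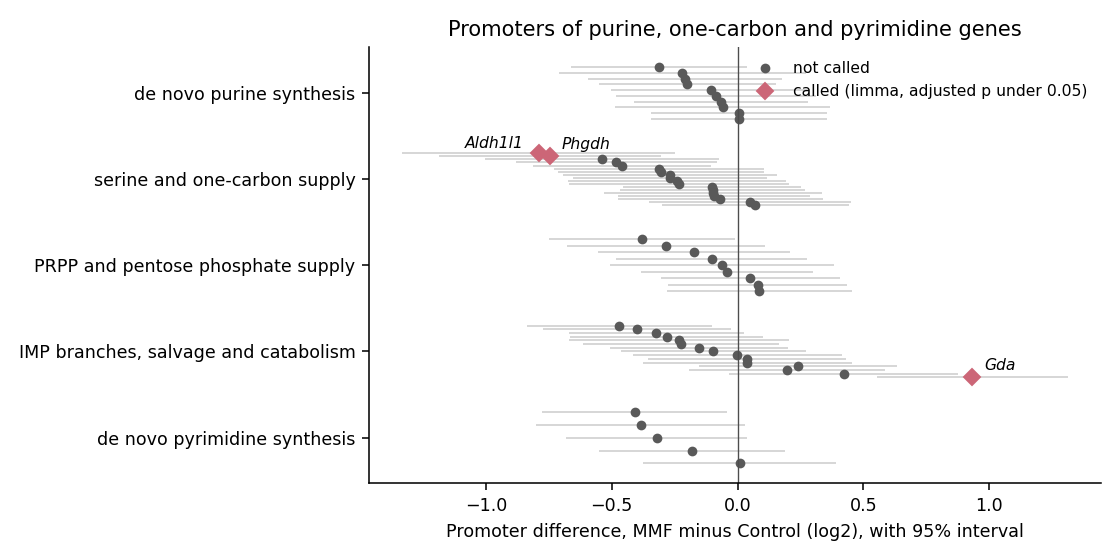
Promoter difference (MMF minus Control, log2) of each tested gene in 5 lists, with its 95% interval from limma; red diamonds are called at an adjusted p under 0.05. The 10 genes of de novo purine synthesis lie between -0.31 and 0.01 with none called, while Phgdh and Aldh1l1 were called lower and Gda higher.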

How the data were processed

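ATAC-seq reads were trimmed with Trim Galore, checked with FastQC and mapped to mm10 with Bowtie2, and peaks were called on each sample with MACS2 by the authors (tools per the submitters' processing notes; versions not given in the sources used here). The deposited lists give for each peak a fold enrichment, a ratio of summit reads to local background, and −log10 p and −log10 q values. The deposited score column was not used. The whole number of reads over a summit and its background were solved from the ratio and the Poisson p. They gave back the deposited p of 100% of the peaks within a relative error of 1e-05. The median of the backgrounds within 2% of the lowest in each list was taken as the genome-wide background (0.620 to 0.729 in Control and 0.676 to 0.909 in MMF samples). The total number of reads is unknown, and the median summit held 14 to 19 reads.

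Peaks on chromosomes 1 to 19, X and Y were merged over the 6 lists at an overlap of at least 1 bp. For the 41182 regions shared by the lists, the R 4.3.3 package limma 3.58.1 (lmFit, eBayes, group as the term) was applied to log2(summit reads / background), with Benjamini-Hochberg adjustment over all of them. Summit reads replaced ranks because ranks move with the length of a list. The steps were tested on simulated data. A promoter peak overlapped the 1000 bp before or after a start of the GENCODE M21 basic annotation, and gene bodies came from the full annotation. No peak ran past the end of its GRCm38.p6 chromosome. Sequences were read with pysam 0.24.0 in Python 3.11.15 with scipy 1.17.1.

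Members and gene lists were chosen with earlier results of these data known. The text names all 10 members, their promoters, every gained, lost or called region, the strongest region outside promoters for each gene, neighbours whose promoters lie in the windows, and from each list the called genes or, with none called, the 2 of largest difference. Alternatives covered the ranking, the local background, centring, equal list length, a −log10 q of at least 2, overlap, window and promoter width, samples left out, the replicate number as a block, and a trended robust fit.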

Additional observations from a re-analysis of the deposited data

How the results depend on the processing

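The call of the Ppat intronic region held in 13 of 14 alternatives (limma adjusted p 0.000195 to 0.0444) and was lost on centring, at 0.58 (adjusted p = 0.0505). Centring left 0 of the 19 shared member regions called higher and 5 lower, beside 6.90% and 13.9% of all shared regions. Most of the 19 were promoters. With centring the median difference was -0.443 over all promoters, against -0.189 over all shared regions. The share of all promoters called with centring was not counted. The 5 were the promoters of Prps1, Atic and Adss, the region at -4055 bp from Pfas and the Dnajc28 region. Lost regions numbered 0 except for 1, upstream of Prps1 (chrX:140447620-140447772), at equal list length and without MMF replicate 3, a range of 0 to 1 over samples left out. Gained regions numbered 2 at equal length, 4 without any single sample, 6 at 2 of 3 MMF lists against 0, with regions in Prps2, Gart and Atic added, and 6 of 122 in windows of 50 kb. Peaks lie wholly within their merged region, so the stricter overlap changed nothing by construction. The promoter median was 0.0651 by rank of fold enrichment, 0.11 by rank of −log10 p, 0.0741 as log2 fold enrichment, -0.159 at equal list length and -0.45 with centring, and -0.19 to -0.03 over samples left out. It stayed at -0.10 with promoters of 500 or 2000 bp.

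Deviations of same-numbered samples from their group means correlated at -0.00128, 0.00388 and -0.00257. Most summits held few reads, and counting error could hide a shared origin. These values therefore do not decide whether the samples were paired. With the replicate block the Ppat region had an adjusted p of 0.0178 and 1 member region was called higher and 0 lower, and the window peaks differed by 9.67, as without it (exact permutation p = 0.25, the smallest it allows). The block changed no other call of the members.

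Promoter differences that changed sign, none of them called in either setting, were as follows. By rank of fold enrichment they were 0.0210 in Prps1, 0.15 in Gart, 0.11 in Pfas and 0.18 in Mthfd2. By rank of −log10 p they were 0.25 in Gart, 0.0909 in Pfas, 0.13 in Adsl and 0.16 in Mthfd2. As log2 fold enrichment they were 0.0370 in Prps1, 0.15 in Gart, 0.11 in Pfas and 0.12 in Mthfd2. The Ppat and Paics promoter was at -0.0024 at equal length, -0.35 with centring and -0.0473 to 0.0599 over samples left out, negative without Control 1 and MMF 2. Over samples left out, Pfas ranged from -0.197 to 0.0103 and Adsl from -0.19 to 0.10, both positive without Control 3, and Mthfd2 from -0.214 to 0.0094, positive without MMF 1. The causes were not tested.

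Of the 47 list genes, 0 were called higher by rank of fold enrichment, at equal length and as log2 fold enrichment. Called lower were 0 by either rank of the full lists and as log2 fold enrichment, and 3 of 46 at equal length. They were 21 with centring, 6 in the trended robust fit, and 0 to 1 over samples left out. The share over all promoters was not counted for these settings. With centring the median difference was -0.443 over all promoters and -0.189 over all shared regions, so the 21 cannot be read as particular to these lists. Over all shared regions, 7643 were called higher and 399 lower, against 2402 and 76 by rank of fold enrichment, 3923 and 104 by rank of −log10 p, 586 and 572 at equal length, 4642 and 97 as log2 fold enrichment, 2841 and 5715 with centring, 8980 and 1283 in the trended robust fit, and 4647 to 7265 and 185 to 247 over samples left out. Centring assumes equal medians of shared regions. Summits outside the shared member regions held 4 to 33 reads and those of the Prps2 promoter 11 to 19.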
